A study of Drosophila melanogaster with 4 samples.

Results

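The clusters described here are the stretches of the Drosophila melanogaster X chromosome arm that the authors called enriched for trimethylation of lysine 9 of histone H3 (H3K9me3) between 0.3 Mb from the telomere-facing end of the arm sequence and 2 Mb before its centromere end, on FlyBase release 5. This interval of 20.1 Mb, of an arm sequence of 22422827 bp, leaves out the telomere-facing tip of the arm and the stretch next to the centromere, so that it holds the scattered marks of the arm and not the block of pericentric heterochromatin. A cluster was a member when it lay wholly inside the interval, and no cluster of any list crossed either end. ChIP replicate 1 had 751 members of 5083 clusters on all sequences, ChIP replicate 2 had 700 of 4595, and the combined list deposited for the whole series had 1477 of 7929.

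The mark was profiled by chromatin immunoprecipitation and sequencing in nuclei from heads of adult flies of the wild-type strain Oregon-R. All 4 samples carry the same wild-type genotype and stage, labelled mixed adult, and none was treated: 2 are ChIP libraries and 2 are input libraries, each input numbered with a ChIP library. Heads were sieved from whole adults of population cages run on a cycle of 22 days, so each library pools many animals and every cell type of the head. The labels do not give the sex, and they do not say of the replicates whether they came from separate cages or preparations of chromatin, so replicate spread here may be only technical. The 3 deposited lists give a start, an end and a score for each cluster but no read counts, which leaves the sequencing depth unknown. The score is the authors' own value on a scale that is not stated. With 1 condition the design holds no contrast, and the values below are descriptions with the spread over 2 libraries. Neighbouring clusters share chromatin and libraries and are not replicates, so nothing was tested over them.

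H3K9me3 is laid down in flies by the methyltransferases Su(var)3-9 and eggless, and is bound by heterochromatin protein 1a, which packs marked nucleosomes into silent chromatin. It is best known from the pericentric regions and the small chromosome 4. On the gene-rich arms it is known from shorter patches, often at transposable element insertions and other repeats. The X carries a feature of its own in this respect: short arrays related to a pericentric satellite are scattered through its gene-rich part. The interval holds white and Notch, classical genes of eye colour and of cell fate, among many others, but genes, repeats and base composition were not assigned to clusters here, since no annotation or genome of release 5 was used.

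Members were short and covered little of the arm. In replicate 1 they covered 1850 kb, or 9.20% of the interval, and in replicate 2 they covered 1689 kb, or 8.39% (mean 8.79% ± 0.57, SD, n = 2 ChIP libraries, as for the means that follow). The median member was 1985 bp wide in replicate 1 and 1940 bp wide in replicate 2, and 79.9% and 81.3% of them were narrower than 3 kb. The shortest cluster on any sequence was 1301 bp in each replicate and 1001 bp in the combined list, and 130 members of replicate 1 and 131 of replicate 2 were narrower than 1.5 kb. Many widths thus lay just above a floor that holds for every sequence, and the lists say nothing of narrower patches. At the other end, 46 members of replicate 1 and 38 of replicate 2 were at least 5 kb wide and held 17.7% and 17.0% of the members' sequence, and the widest reached 15148 and 16283 bp.

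Wider members had higher scores. The median score was 0.78 in both replicates, with quartiles of 0.67 and 0.88 in replicate 1 and 0.67 and 0.90 in replicate 2. Spearman's rho between width and score was 0.64 across the 751 members of replicate 1 and 0.59 across the 700 of replicate 2. It is given as a description, since both values of a cluster come from the same reads of 1 library.

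The 5 longest members of the combined list were wide patches that both replicates also called for more than 50% of their length. The longest measured 18.0 kb (X, 2318384 to 2336399, score 1.16) and was 90.1% covered by 2 clusters of replicate 1 and 90.4% covered by 1 cluster of replicate 2. The cluster of 14.6 kb from 17958249 to 17972891 had the highest score of the 5, at 1.54, and was 97.7% and 97.8% covered. That of 13.05 kb from 18373744 to 18386790 was 87.1% and 89.6% covered. The other two were neighbours, at 6622990 to 6636790 (13.8 kb) and 6638763 to 6654236 (15.5 kb), with 1972 bp between them. Together they made a patch of 31.2 kb of which the combined list covered 93.7%, replicate 1 covered 72.4% and replicate 2 covered 77.1%. The replicates were less complete over the first of the pair (54.1% and 72.5%) than over the second (97.9% and 91.0%).

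Some of the highest scores of the combined list fell on clusters of another kind. Of the 5 highest-scoring members of the combined list, 3 were at most 1086 bp wide, close to the floor of that list. The one from 15941037 to 15942037 (score 2.35) and the one from 4727189 to 4728274 (score 2.10) had no base in common with a cluster of either replicate. The one from 19030608 to 19031615 (score 2.10) was inside a cluster of replicate 2 that had the highest score of that replicate, 3.09, and replicate 1 had no cluster there. The other two were found in both replicates. The cluster from 1521787 to 1529650, 7864 bp wide, scored 2.01 in the combined list, 2.10 in replicate 1 and 1.98 in replicate 2. The cluster from 3309221 to 3311462, 2242 bp wide, scored 1.88, 1.86 and 2.31. A top score in the combined list was thus no guarantee that either replicate had called the place. Within the replicates top scores were mostly shared. The 5 highest-scoring members of replicate 1, from 1683 to 7764 bp wide, were all found in replicate 2. Of the 5 highest in replicate 2, all but the first were found in replicate 1.

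Spacing was uneven: most clusters had a close neighbour and a small number of long gaps took up much of the arm. The median gap from the end of a member to the start of the next was 10.9 kb in each replicate (10.9 kb ± 0.04), and the quartiles were 3.53 and 28.3 kb in replicate 1 and 3.04 and 31.1 kb in replicate 2. The mean gap was 24.3 kb in replicate 1 and 26.3 kb in replicate 2, 2.23 and 2.40 times the median. Gaps of at most 1 kb numbered 71 of 750 in replicate 1 and 79 of 699 in replicate 2. Gaps over 50 kb were 12.5% of all gaps in replicate 1 and 14.6% in replicate 2, but they made up 49.2% and 52.8% of the interval.

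**Figure D1:**
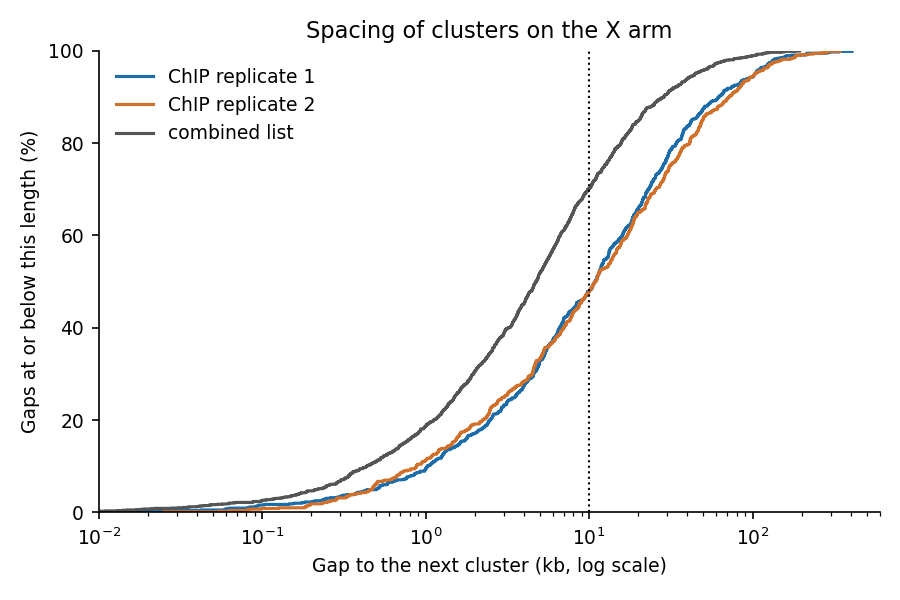
Cumulative share of the gaps between neighbouring clusters of the X interval (vertical axis, percent) at or below a length (horizontal axis, kb, log scale) in ChIP replicate 1, ChIP replicate 2 and the combined list; gaps under 10 bp fall left of the axis and the dotted line marks 10 kb. The curves of the replicates run together, with 47.9% and 47.8% of gaps at or below 10 kb, and that of the combined list lies to the left, with 70.1%.

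Groups of close clusters were described as runs, strings of at least 3 members in which no gap was over 10 kb. Replicate 1 had 80 runs with 356 members and replicate 2 had 77 runs with 332 members, which was 47.4% of the members in both. The runs spanned 9.42% of the interval in replicate 1 and 8.73% in replicate 2, and inside them 47.5% and 48.1% of the sequence was in clusters. Of these runs, 30 and 36 had exactly 3 members, 21 and 14 had 4, and 29 and 27 had 5 or more, of which 5 and 3 had at least 8. Another 22.1% and 22.6% of members stood in pairs, and 229 members of replicate 1 (30.5%) and 210 of replicate 2 (30.0%) stood alone. Only 13 and 20 members had no neighbour within 50 kb.

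**Figure D2:**
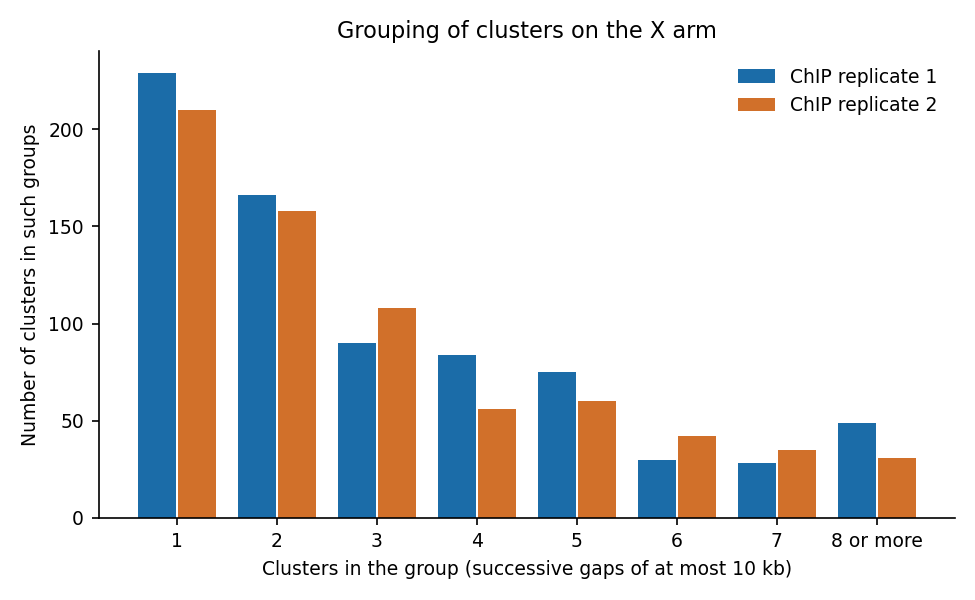
Number of clusters of the X interval (vertical axis) that belong to groups of each size (horizontal axis, clusters per group, with successive gaps of at most 10 kb) in the 2 ChIP replicates; bars start at 0. Single clusters are the most frequent class, with 229 and 210 clusters, and the largest group holds 12 clusters in each replicate.

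Clusters in runs differed little from single ones in width and score. In replicate 1 the median width was 2029 bp in runs and 1951 bp among single members, and in replicate 2 the values were 2008 and 1864 bp. The median scores were 0.79 and 0.76 in replicate 1 and 0.80 and 0.77 in replicate 2. Scores of neighbours no more than 10 kb apart were nearly unrelated, with a Spearman's rho of 0.10 over 359 pairs in replicate 1 and 0.04 over 334 pairs in replicate 2.

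Most runs overlapped a run of the other replicate. Of the 80 runs of replicate 1, 53 (66.3%) overlapped a run of replicate 2, and of the 77 of replicate 2, 53 (68.8%) overlapped a run of replicate 1. Of the runs with 5 or more members, 24 of 29 and 24 of 27 did. No run of either replicate was without a cluster of the other inside its span. As measured in sequence, 61.8% of the span of the runs of replicate 1 lay in runs of replicate 2, and 66.7% the other way. A longer run meets clusters and runs of the other library more easily by its length alone, and no allowance was made for that. The same shares were not worked out for runs on other arms, so these have no background beside them.

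The longest run lay near the proximal end of the interval and had 12 members in each replicate. It reached from 20065722 to 20119376 in replicate 1 (53.7 kb, 56.2% in clusters) and from 20065109 to 20118412 in replicate 2 (53.3 kb, 48.5% in clusters). Scores ranged from 0.34 to 1.13 with a median of 0.99 in replicate 1, and from 0.63 to 1.18 with a median of 0.90 in replicate 2, above the median of all members. Of its members, 10 of 12 in replicate 1 and 11 of 12 in replicate 2 overlapped a cluster of the other library. In each replicate the highest-scoring member of the run overlapped no cluster of the other. The cluster from 20076072 to 20079518 scored 1.13 in replicate 1, and that from 20073269 to 20075936 scored 1.18 in replicate 2, with 135 bp between them. The combined list has a cluster at each of these places, 20073144 to 20075980 (score 0.76) and 20076081 to 20079492 (score 0.86).

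**Figure D3:**
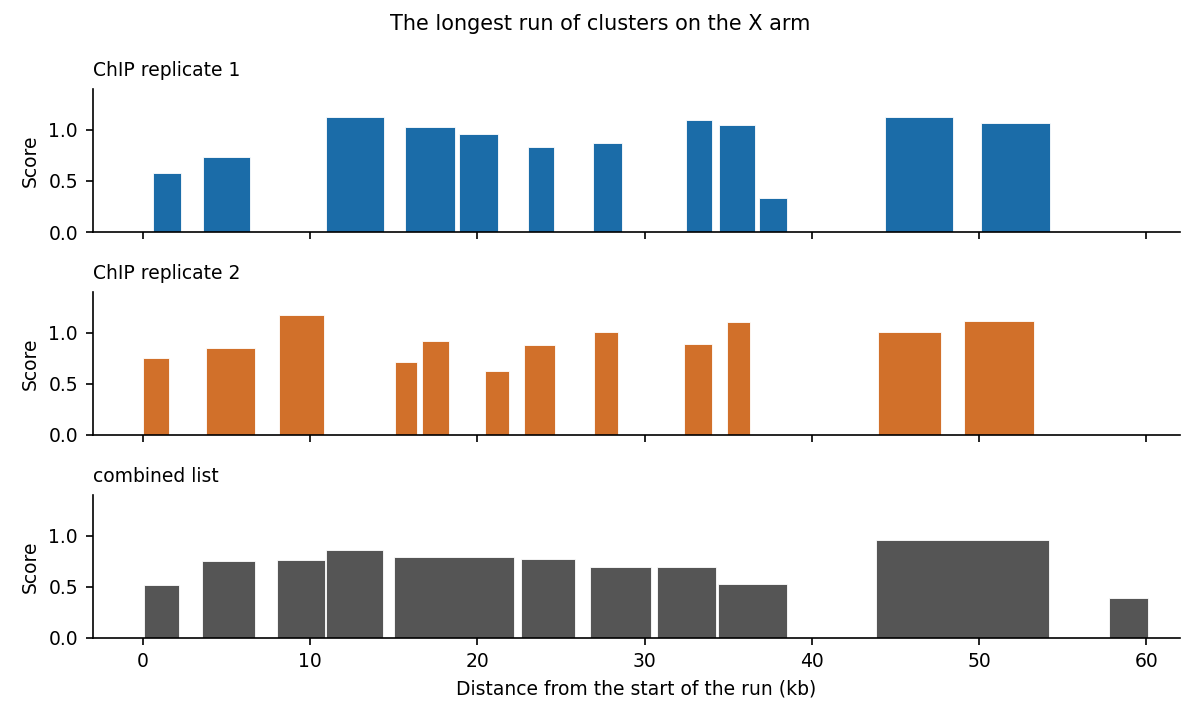
The longest run drawn to scale, with distance from its start in replicate 2 (horizontal axis, kb) and the authors' score (vertical axis) in ChIP replicate 1, ChIP replicate 2 and the combined list; each block is 1 cluster, as wide as the cluster. The 12 clusters of each replicate fall on mostly the same places, and the combined list joins some of them, so that 10 of its clusters lie in the span of either replicate's run.

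The other runs ranked highest by number of members were spread over the arm. A run from 19804242 to 19861436 in replicate 1 had 10 members, and one from 19804593 to 19862199 in replicate 2 also had 10, and every member overlapped a cluster of the other replicate. Both this run and the longest one lay in the last full window of the interval. A run of 10 members in replicate 1 from 16350011 to 16407609 met a run of 9 in replicate 2 from 16344311 to 16399042, with 8 members found in the other replicate each way. Replicate 1 had a run of 8 from 7762366 to 7801100, of which 7 were found in replicate 2. Replicate 2 had 5 runs of 7. Those from 2079320 to 2102333 and from 5567720 to 5604379 each had 6 members found in replicate 1. Another, from 7762664 to 7794511, met the replicate 1 run of 8. The run from 458742 to 517242 went differently: replicate 1 had 9 members there, replicate 2 had 3 clusters, and 2 of the 9 were found.

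Density along the arm was followed in 40 windows of 500 kb from the start of the interval, each cluster being counted at its midpoint. No window was empty in either replicate. Counts ran from 4 to 33 in replicate 1 (median 19.5) and from 5 to 30 in replicate 2 (median 18). The replicates followed each other closely, with a Pearson r of 0.83 and a Spearman's rho of 0.84 across the 40 windows. These describe windows of the same genome in 2 libraries and carry no p. Counts differed by at most 3 in 26 windows, replicate 1 was higher in 20 and replicate 2 in 16. The largest difference was in the first window, which ends at 800000, with 22 clusters in replicate 1 and 10 in replicate 2, where the run of 9 just described lies. The remaining 123 kb at the proximal end held 5 and 4 clusters.

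**Figure D4:**
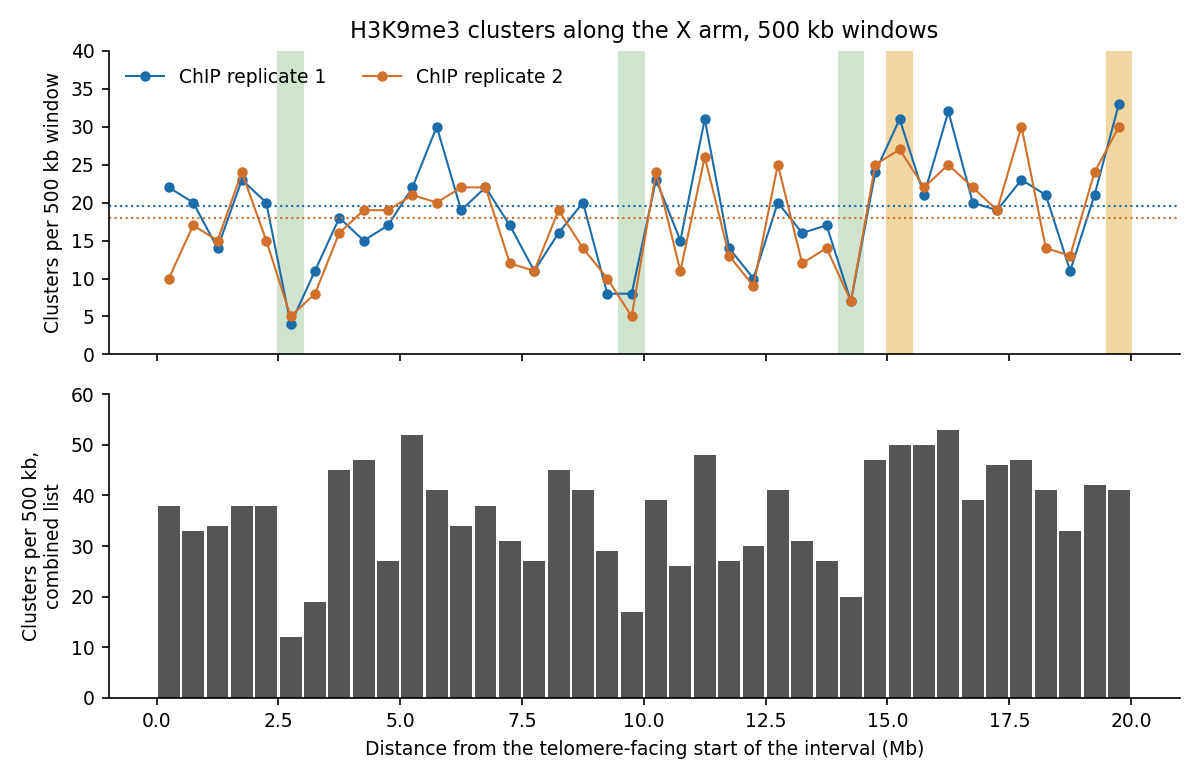
Clusters per 500 kb window (vertical axes) against distance from the telomere-facing start of the X interval (horizontal axis, Mb): above, ChIP replicate 1 and 2 with their medians of 19.5 and 18 dotted; below, the combined list. Green bands mark the 3 windows that are sparse in both replicates (4 to 8 clusters) and orange bands the 2 that are dense in both (27 to 33 clusters).

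Clusters became denser toward the centromere end, mostly in the last 5 Mb described here. In 4 successive blocks of 5 Mb there were 31.2 ± 2.26, 32.9 ± 2.40, 34.3 ± 1.56 and 45.8 ± 0.85 clusters per Mb. The values of the replicates overlapped among the first 3 blocks, where they ran from 29.6 to 35.4 per Mb, and both values of the last block were above them, at 46.4 and 45.2 per Mb. It was 11.5% ± 0.47 covered, against 7.72% ± 0.57, 8.09% ± 0.75 and 7.86% ± 0.46. Without its densest window, the last full one before the centromere end, the last block still had 43.9 ± 0.47 clusters per Mb. The median gap fell along with this, from 12.5 kb ± 0.92 in the first block to 8.80 kb ± 0.14 in the last. Median widths of the 4 blocks lay between 1925 bp ± 55.2 and 2010 bp ± 6.7, and that of the last, 1951 bp ± 72.8, was within this range. Median score was 0.79 ± 0.02 in the first block, 0.77 in the next 2 and 0.79 in the last.

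A window was called dense when it held at least 1.5 times the median count in each replicate, and 2 of 40 windows did. The densest by replicate count was the last one, from 19800001 to 20300000, with 33 and 30 clusters over 14.8% and 12.8% of its length. The combined list had 41 clusters in it, against a median of 38 per window. Its median scores were 0.87 and 0.89, against 0.78 for all members. The other was the window from 15300001 to 15800000, with 31 and 27 clusters over 15.5% and 13.8%. Of the replicate 1 clusters in these windows, 25 of 33 and 23 of 31 were found in replicate 2. Next, with the same mean count of 28.5, came the window from 11300001 to 11800000, with 31 and 26 clusters, and that from 16300001 to 16800000, with 32 and 25. Both passed the limit in replicate 1 and missed it in replicate 2. The window from 17800001 to 18300000, with 23 and 30 clusters, did the reverse. It had the highest mean coverage of all windows, 15.2% ± 1.25. A broader rich stretch ran from 14800001 to 18800000. Over these 4 Mb there were 191 and 184 clusters, 46.9 ± 1.24 per Mb. Not every window in it was rich. Each of the 8 windows but the last held at least 19 in both replicates, where the medians were 19.5 and 18. The last held 21 and 14. The next window, from 18800001 to 19300000, held only 11 and 13, so the rise toward the centromere end was not steady.

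A window was called sparse when it held at most 0.5 times the median count in each replicate, and 3 of 40 did. The sparsest, from 2800001 to 3300000, held 4 and 5 clusters over 1.41% and 1.69% of its length, and 1 of the 4 in replicate 1 was found in replicate 2. The windows from 9800001 to 10300000 (8 and 5 clusters) and from 14300001 to 14800000 (7 and 7) followed. Each is next to a window low in both libraries or to a rich one. The window after the first, from 3300001 to 3800000, held 11 and 8, so that 1 Mb held 15 and 13 clusters in all, 14.0 ± 1.41 per Mb. The window before the second held 8 and 10, and that 1 Mb held 16 and 15. The window after the second held 23 and 24. The last of the sparse windows borders the rich stretch, and the next window held 24 and 25 clusters. By the same rule against each arm's own median, 15.0% of 173 windows on the 4 autosomal arms were dense and 12.1% were sparse. Median counts are lower there, so that a window passes either limit with a smaller difference in count, and the shares cannot be ranked against those of the X.

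The longest stretches without a cluster in either replicate lay in or beside these sparse windows. There were 29 such stretches of at least 100 kb, with a total of 4.09 Mb, or 20.3% of the interval, and 3 were longer than 200 kb. The longest was 276 kb (3424753 to 3700628), followed by 264 kb (14216195 to 14480205) and 219 kb (2621624 to 2840139). The longest lay in the window after the sparsest one, and the others ran into the last and the first of the sparse windows. In single libraries the longest gap was 408 kb in replicate 1 (2621624 to 3029552), in which replicate 2 had 3 clusters, and 344 kb in replicate 2 (3424753 to 3768945), in which replicate 1 had 6. The stretches were not empty in the combined list, which had 5, 4 and 6 clusters in the 3 longest and covered 2.20%, 1.55% and 3.38% of them. Over all 29 it had 65 clusters, 15.9 per Mb against 73.4 per Mb in the whole interval, and 1 stretch held none. Its own longest stretch without a cluster was 195 kb (3492363 to 3687063), inside the first. Whether reads can be placed uniquely in these stretches was not examined here.

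About 2 in 3 members were found in the other replicate by an overlap of at least 1 bp. Of the 751 members of replicate 1, 485 (64.6%) were found in replicate 2, against 75.3% of the clusters on all sequences and 60.6% of those on the autosomal arms chosen by the same rule. Of the 700 members of replicate 2, 492 (70.3%) were found in replicate 1, against 79.0% and 72.3%. The shares on the X thus lay below those of the whole lists, which include the pericentric blocks, and close to those of the autosomal arms, higher in replicate 1 and lower in replicate 2. Merged, the lists gave 940 places, of which 466 (49.6%) were marked in both replicates, 266 only in replicate 1 and 208 only in replicate 2. The places shared 1161 kb of the 2378 kb covered by either replicate, a Jaccard index of 0.49.

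Wide members were shared more often than narrow ones. In replicate 1, 42 of 130 members under 1.5 kb (32.3%, Wilson 95% interval 24.9% to 40.8%) were found in replicate 2. The share was 50.4% at 1.5 to 2 kb, 78.4% at 2 to 3 kb and 94.3% at 3 to 5 kb, and it was 46 of 46 at 5 kb and over. In replicate 2 the shares were 45.0% (36.8% to 53.6%), 58.9%, 83.7% and 96.8%, and 38 of 38. The intervals cover counting error only and treat clusters as independent. A wider cluster also meets another more easily by its size alone, and no allowance was made for that. Shared members of replicate 1 had a median width of 2291 bp and unshared ones 1637 bp, and those of replicate 2 had 2153 and 1622 bp. The same order held for scores, which go with width: when the members of each list were ranked by score and split into 4 equal classes, 52.1% of the lowest class and 84.6% of the highest were shared in replicate 1, and 57.1% and 89.7% in replicate 2.

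**Figure D5:**
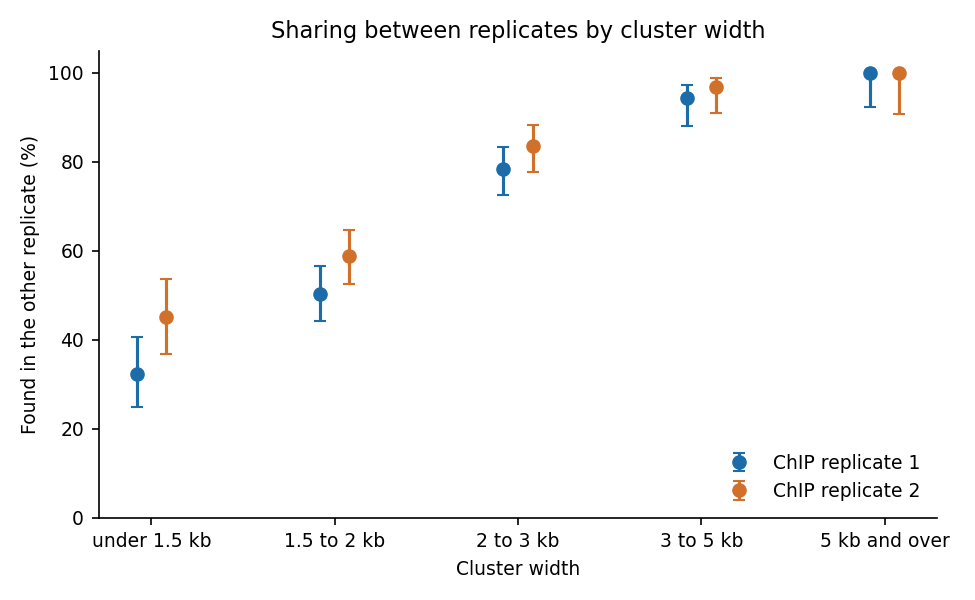
Share of the X members found in the other replicate by at least 1 bp (vertical axis, percent) by cluster width (horizontal axis); points are the shares of ChIP replicate 1 and 2 and bars are Wilson 95% intervals, which cover counting error only. The share goes from 32.3% and 45.0% under 1.5 kb to all 46 and all 38 clusters of at least 5 kb.

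Grouping and position went with smaller differences. Of the members in runs, 71.9% in replicate 1 and 76.8% in replicate 2 were found in the other. Of those in pairs, 59.0% and 60.8% were, and of those standing alone, 57.2% and 67.1%. The share was thus highest in runs in both but did not rise from single members to pairs in replicate 2. Members of runs were slightly wider than single ones, and every run had clusters of the other library in its span. Both make an overlap easier, and no allowance was made for them. On every autosomal arm by the same rule, runs also had a higher share than single members in replicate 1. In replicate 2 this held on 2R and 3L. It did not hold on 2L (67.5% in runs, 70.4% single) or on 3R (63.8% and 74.0%). Along the X the shares were 59.8%, 61.3%, 66.7% and 68.5% over the 4 blocks of 5 Mb in replicate 1. In replicate 2 they were 68.9%, 68.6%, 71.7% and 70.8%. The replicates differed in the first block by as much as the blocks did in replicate 1. Of the unshared members, 59.8% in replicate 1 and 63.0% in replicate 2 lay within 10 kb of a cluster of the other library. The nearest was at a median distance of 6.88 kb for the 266 unshared members of replicate 1 and 5.89 kb for the 208 of replicate 2, and 36 and 38 of them missed it by no more than 1 kb. The median gap within a library was itself 10.9 kb, and no reference distance was worked out. The combined list has a cluster at 255 (95.9%) and 200 (96.2%) of the unshared members, against 98.5% and 98.9% of all members.

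Where both replicates had a single cluster at a place, they put it at nearly the same position. There were 431 such places, 92.5% of the 466 shared ones. They were chosen by an overlap of at least 1 bp, which by itself limits how far apart the clusters of a place can lie. The midpoints differed by a median of 161 bp, the starts by 196 bp and the ends by 223 bp, and 339 of the 431 midpoints (78.7%) were within 500 bp. Widths had a Spearman's rho of 0.63 and scores one of 0.66 across the 431 places, given without a p since places are not independent replicates. Neither library was uniformly the stronger: replicate 1 was the wider one at 249 places and replicate 2 at 182, and replicate 2 had the higher score at 232.

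The combined list had about 2 times as many members as either replicate, and the added ones were short. Of its 1477 members, 453 (30.7%) had a counterpart in both replicates and 600 (40.6%) had none, while 240 met only replicate 1 and 184 only replicate 2. Over all sequences 37.8% were found in both and 38.7% in neither, and on the autosomal arms by the same rule 26.9% and 46.7%. The 600 had a median width of 1339 bp and a median score of 0.51, against 3372 bp and 0.70 for those found in both. Of the 600, 278 (46.3%) were narrower than 1301 bp, the shortest width in the replicate lists. The 600 held 23.9% of the members' sequence, and the 453 held 51.5%. The median distance of the 600 to the nearest replicate cluster was 4.89 kb, and 420 (70.0%) lay within 10 kb of one. No reference distance was worked out, so this does not show that they gather near replicate clusters. Of the 600, 53 (8.8%) touched a run of a replicate, while such runs spanned 12.3% of the interval. Replicate clusters fill part of those runs and were closed to the 600 by definition. Along the arm the combined counts followed the replicates, with a Pearson r of 0.77 and 0.79 over the 40 windows, but no combined count reached 1.5 times its median of 38.

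Set beside the autosomal arms over the same parts, 300 kb inside the distal end to 2 Mb from the centromere end, the X had closer clusters of like width, with a median of 1963 bp ± 31.8 against 1871 to 1976 bp. The X had a median gap of 10.9 kb ± 0.04, while arm 2L had 17.7 kb ± 1.61, 2R had 16.2 kb ± 1.33, 3L had 19.7 kb ± 3.32 and 3R had 18.8 kb ± 0.48. Runs held 47.4% ± 0.02 of the members on the X, while arm 2L had 35.2% ± 3.69 in runs, 2R had 38.7% ± 4.16, 3L had 31.5% ± 1.33 and 3R had 29.5% ± 1.41. In both replicates the X was the lowest of the 5 arms in median gap and the highest in run share. A fixed limit of 10 kb catches more neighbours where clusters are dense, and how far the run share depends on density was not tested. A measure free of that limit is the mean gap over the median gap. It was 2.32 ± 0.12 on the X and between 2.50 ± 0.17 and 2.72 ± 0.26 on the autosomal arms. The X had the lowest ratio in each replicate, but values overlapped across replicates, with 2.40 on the X in replicate 2 and 2.38 on 2R in replicate 1. Inside runs, coverage was 47.8% ± 0.47 on the X and between 47.1% ± 2.04 and 51.5% ± 1.29 on the others. Scores were also higher on the X, with a median of 0.78 against 0.61 to 0.64 on the autosomal arms. These differences between arms were not tested here. The labels do not give the sex and so not the number of X copies per cell in the pooled heads, whose part in these differences was not tested.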

How the data were processed

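The submitters' processing notes name Bowtie 0.12.7 as the aligner, and per the file headers the coordinates belong to FlyBase release 5. The score of each cluster is the authors' deposited value. Its scale, the cluster caller, the threshold, the use of the inputs and the making of the combined list were not given in the sources used here. Starts and ends are 1-based and inclusive. Counts, widths, gaps, runs, windows and overlaps were computed in Python (3.11.15; with numpy, 2.4.6, and scipy, 1.17.1) and plotted using matplotlib (3.10.9). The code was tested on simulated lists with planted overlaps, runs and gaps.

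Quantities are given per replicate or as mean ± SD over 2 libraries, and the combined list as a single list. The members, windows, limits and lists were chosen with earlier results of these data known. Named by a fixed rule were the 5 longest and 5 highest-scoring combined clusters, the 5 largest runs per replicate that overlap a run of the other, the 3 densest and 3 sparsest windows and the 3 longest free stretches. The first window, the pair of clusters 135 bp apart, the highest-scoring replicate 2 cluster and the stretches of 1 and 4 Mb were picked after their values were seen. Genes were not assigned to clusters: the gene table at hand is on release 6. Alternatives were a score threshold, width minimums, joining, stricter overlaps, other run limits and other windows.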

Additional observations from a re-analysis of the deposited data

How the results depend on the processing

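No paired analysis was possible because the inputs, which share the replicate numbers, have no cluster list and no result comes from a test. Each of the 10 results was recomputed under alternatives, 78 values in all. Of these, 36 stayed within the replicate spread, the counting interval or 1.5 times a count, and 42 moved further. The 36 are no measure of stability, since many of them had no room to move. The planned minimum width of 1 kb removed nothing and left every value as it was, such as 725.5 members per replicate. No cluster crossed an end of the interval, so counting those that touch it also gave 725.5. Without a replicate, coverage, median width, median gap and run share become the value of the other library. That value always lies within the SD of 2 values from their mean, so these were bound to stay. A minimum of 2 kb was added after seeing the data.

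With a threshold at the median score of each file, members fell to 228.5 per replicate, coverage to 3.95%, the run share to 15.3%, and the median width was 2769 bp and the median gap 47.9 kb. There were 5 dense windows and the longest free stretch was 688 kb. Applied to both lists, it gave shares found of 48.9% for replicate 1 and 71.0% for replicate 2, and applied to the counted list alone, 81.4% and 89.1%. The thresholds differed between the files, at 0.83 and 0.89. With a minimum of 2 kb, the values were 345 members, 5.72%, 29.8%, 2744 bp, 24.7 kb, 5 dense windows and 408 kb. The shares found were 64.2% and 73.2% with this minimum on both lists, and 85.6% and 89.4% with it on the counted list alone. In the combined list they were 1477 members, 17.8%, 76.1%, 1881 bp, 4.74 kb and 195 kb. Joining clusters up to 1 kb apart gave a median width of 2020 bp, a median gap of 13.3 kb, a run share of 39.4% and 1 dense window.

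A run limit of 5 kb gave a run share of 26.4% and one of 20 kb gave 71.8%. An overlap of 50% of the cluster lowered the shares found to 59.7% and 66.3%, and 50% of both clusters to 57.1% and 61.3%. Windows of 250 kb gave 7 dense and 14 sparse windows, those of 1 Mb gave 0 and 1, and a grid shifted by 250 kb gave 4 dense windows, so the number called depends on the grid. Leaving out a replicate gave 700 to 751 members, 8.39% to 9.20% coverage, median widths of 1940 to 1985 bp, median gaps of 10.88 to 10.93 kb, run shares of 47.40% to 47.43% and longest free stretches of 344 to 408 kb. The cause of the other changes was not tested. With no read counts, depth sets a limit that is unknown.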
